A study of Mus musculus with 6 samples.

Results

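The genes described here encode 8 proteins that build, stabilise, destabilise or move along microtubules, most of them best known from neurons. These are the stathmins Stmn1, Stmn2 and Stmn3, the microtubule-associated proteins Map2, Mapt and Map1b, the kinesin-1 heavy chain Kif5c and the beta tubulin Tubb3. They were picked by gene symbol, each symbol matched 1 row, and they are 8 of the 49671 genes measured. The choice was made with results of these libraries known, so their levels and the differences between groups are given as a description. Calls of these genes from the model over all genes are counted beside the share of all genes called, and nothing is read from them.

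The cells were of LKPR EPCAM+, an epithelial tumour line of mouse skin squamous cell carcinoma, and their RNA was sequenced. In 2 libraries the cells carried a lentiviral knock-down of Ntn1, the gene of the guidance cue netrin-1, in 2 a knock-down of Unc5b, the gene of 1 of the receptors for netrins, and in 2 control libraries TRC1 as empty vector. The vector of the knock-downs was pLKO.1-puro, with puromycin resistance as the test of transduction. All 3 groups shared a genotype that includes Lgr5CreER, p53fl/fl and Rosa26-YFP+/+, in which Cre from the Lgr5 locus deletes p53 and marks the cells with YFP. Cells were plated as EPCAM+ and grown for 6 days, and living cells positive for both YFP and EPCAM were then sorted. The model is 1 cell line, the number of hairpins per gene is not given in the sources used here, and whether the libraries of a group are separate cultures is not stated, so the spread between them may be technical.

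Microtubules are polymers of alpha and beta tubulin that grow and shrink at their ends. Stathmins bind tubulin dimers and promote disassembly, whereas MAP2, tau and MAP1B bind the polymer and stabilise it, and kinesin-1 carries cargo along it. In neurons these proteins shape axons and dendrites, where netrin-1 acts on the growth cone through DCC and UNC5 receptors. Epithelial cells mostly use other members of the same families, such as STMN1, MAP4 and KIF5B.

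Values are the deposited ones, scaled by the authors to about 20 M per library. The spacing of the values gave 8.41 and 6.54 M reads in Ntn1 knock-down cells, 9.36 and 8.63 M in Unc5b knock-down cells, and 10.2 and 8.75 M in the empty vector libraries, and 3 reads corresponded to between 5.90 and 9.17 in the scaled unit. Ntn1 was at 359 and 431 in Ntn1 knock-down cells, 1319 and 771 in Unc5b knock-down cells and 1566 and 2588 in empty vector cells, so it was lowest where it was targeted and lower in Unc5b knock-down cells than in the control too. Unc5b was at 2311 and 2382 in Ntn1 knock-down cells, 419 and 352 in Unc5b knock-down cells and 1527 and 1573 in empty vector cells. All 10 epithelial and keratinocyte markers listed passed the filter on low values, a mean of at least 20 over the 6 libraries. The cells were sorted on EPCAM, so the level of Epcam is no separate check of the epithelial label. Epcam ranged from 9736 to 10127 in Ntn1 knock-down cells, from 9121 to 9186 in Unc5b knock-down cells and from 8032 to 9336 in empty vector cells. Cdh1, which encodes E-cadherin, was at 9380 and 8767, 6446 and 5719, and 7460 and 8419 in those groups, and the basal keratin Krt14 was at 5233 and 4795, 1759 and 3817, and 3917 and 1692.

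The upstream sequences of Map2, Map1b and Kif5c are shown because these genes had different patterns over the 3 groups: Map2 was low in Unc5b knock-down cells alone, Map1b was higher in both knock-downs, and Kif5c was higher in one knock-down and lower in the other. RefSeq promoter windows on GRCm38.p6 were found for 5 of the 8 genes. The 250 bases before the RefSeq transcription start are printed 5′ to 3′ on the strand of the gene. They lie at chr1:66175079-66175328 on the plus strand for Map2, at chr13:99516603-99516852 on the minus strand for Map1b, and at chr2:49619036-49619285 on the plus strand for Kif5c. The gene positions given below are from GENCODE, whose starts differ. Map2 starts there at 66175273, inside its window, and the windows of Map1b and Kif5c end short of the GENCODE starts. Capitals mark matches on either strand to 1 of 6 motifs: the GC box GGGCGG, the TATA box TATAAA, the CCAAT box CCAAT, the E-box CACCTG that ZEB and SNAI repressors can bind, and the half-site cores AGCACC and GGACAG of the RE1 element that the repressor REST binds.
Map2: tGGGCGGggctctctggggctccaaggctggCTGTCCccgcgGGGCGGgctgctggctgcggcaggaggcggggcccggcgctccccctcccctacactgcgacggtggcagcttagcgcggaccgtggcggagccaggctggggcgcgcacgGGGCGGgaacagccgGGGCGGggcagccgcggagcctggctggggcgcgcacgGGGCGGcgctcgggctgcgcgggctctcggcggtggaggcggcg
Map1b: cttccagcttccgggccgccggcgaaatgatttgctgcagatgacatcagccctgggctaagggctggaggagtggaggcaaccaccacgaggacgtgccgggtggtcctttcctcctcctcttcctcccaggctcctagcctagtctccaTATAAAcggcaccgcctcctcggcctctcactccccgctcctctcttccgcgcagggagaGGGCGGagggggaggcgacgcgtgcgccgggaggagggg
Kif5c: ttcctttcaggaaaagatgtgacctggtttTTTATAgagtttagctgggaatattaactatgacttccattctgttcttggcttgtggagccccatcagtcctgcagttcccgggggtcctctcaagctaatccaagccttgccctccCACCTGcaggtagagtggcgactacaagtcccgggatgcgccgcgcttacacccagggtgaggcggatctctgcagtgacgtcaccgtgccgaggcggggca
The window of Map2 was 81.2% G and C, held 5 GC boxes and held 1 right half-site core of RE1, read on the other strand as CTGTCC. The window of Map1b was 66.4% G and C and held 1 GC box and 1 TATA box. The window of Kif5c was 55.2% G and C and held 1 CACCTG E-box and 1 TATA box on the other strand (TTTATA). Over all 32851 windows of the same length the median G and C content was 52.4%. Of those windows 32.7% held a GC box, 12.4% a TATA box, 33.8% a CCAAT box, 17.2% the E-box, 13.4% the left and 18.7% the right RE1 core, so each of these matches is common. The matches shown did not overlap each other, and they describe letters, not binding.

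Among the stathmins, Stmn2 differed most. Stmn2 (ENSMUSG00000027500, GRCm38 chr3:8509360-8561606, plus strand, 5602 bases of merged exons) encodes SCG10, a membrane-anchored stathmin of neuronal growth cones. It was at 1184 and 1186 in Ntn1 knock-down cells, 2 and 14 in Unc5b knock-down cells and 31 and 57 in empty vector cells. No group overlapped another, and both Ntn1 knock-down libraries stood far above the other 4. Means were 1185 ± 1.4 in Ntn1 knock-down cells, 8.0 ± 8.5 in Unc5b knock-down cells and 44.0 ± 18.4 in empty vector cells (SD, n = 2 each). Ntn1 knock-down cells were 26.9-fold above empty vector cells, with a log2 difference of 4.65 ± 0.47 (SE) on the scale of value + 5. Unc5b knock-down cells were 5.5-fold below empty vector cells (log2 difference -2.03 ± 0.47), and Ntn1 knock-down cells 148-fold above Unc5b knock-down cells (6.69 ± 0.47). The low levels rest on few reads: about 498 and 388 in Ntn1 knock-down cells, but 1 and 6 in Unc5b knock-down cells and 16 and 25 in empty vector cells. The exact 95% Poisson intervals of the pooled level were 1108 to 1266, 3.13 to 16.0 and 31.1 to 58.8 for these groups, for counting error only. In bulk RNA, a change in the number of cells that express a gene and a change in the RNA per cell cannot be told apart, here and for every gene below. Of the 5601 stretches of 50 bases in Stmn2 transcripts, 0.893% also occur in other annotated genes.

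Stmn1 (ENSMUSG00000028832, chr4:134468320-134473843, plus strand, 1922 exon bases), the stathmin of dividing cells, was the most abundant of the 3. It was at 2014 and 2131 in Ntn1 knock-down cells, 1400 and 1445 in Unc5b knock-down cells and 2134 and 1880 in empty vector cells. The Unc5b knock-down libraries were the lowest pair, and those of Ntn1 knock-down cells and empty vector cells overlapped. The log2 difference from empty vector cells was 0.05 ± 0.12 in Ntn1 knock-down cells and -0.49 ± 0.12 in Unc5b knock-down cells, and that between the knock-downs was 0.54 ± 0.12. Stmn1 reads are partly ambiguous, since 18.9% of the 50-base stretches of its transcripts also occur in other genes, most of them in Gm11223. That gene was at 119 and 113 in Ntn1 knock-down cells, 64 and 81 in Unc5b knock-down cells and 85 and 82 in empty vector cells. The miRNA gene Gm23634 lies inside a Stmn1 exon on the same strand and shares 66 bases with it. Stmn3 (ENSMUSG00000027581, chr2:181306459-181314500, minus strand, 1136 exon bases), which encodes the neuronal stathmin SCLIP, was close to absent. It was at 0 and 3 in Ntn1 knock-down cells, 4 and 5 in Unc5b knock-down cells and 0 and 7 in empty vector cells, which is at most 3 reads in any library, so no difference was detectable at this depth. Stmn3 and Tubb3 were the members that did not reach the mean of 20 required for testing.

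Within the stathmin family, compared per kilobase of exon, Stmn2 made up 16.8% and 16.0% of the summed level of the 4 stathmin genes in Ntn1 knock-down cells. Its share was 0.0488% and 0.329% in Unc5b knock-down cells and 0.496% and 1.02% in empty vector cells. Stmn1 supplied nearly all of the rest, and Stmn4, the remaining neuronal stathmin, was at 2 or below in every library.

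Of all members, Map2 was the farthest below the control in Unc5b knock-down cells. Map2 (ENSMUSG00000015222, chr1:66175273-66442583, plus strand, 16449 exon bases) encodes the microtubule-associated protein of dendrites. It was at 559 and 761 in Ntn1 knock-down cells, 41 and 21 in Unc5b knock-down cells and 505 and 846 in empty vector cells. Ntn1 knock-down cells and empty vector cells overlapped, and both Unc5b knock-down libraries lay far below them. Means were 660 ± 143, 31.0 ± 14.1 and 676 ± 241 in that order of groups (SD, n = 2 each). Map2 in Unc5b knock-down cells was thus 21.8-fold below empty vector cells, with a log2 difference of -4.25 ± 0.34. Ntn1 knock-down cells were 21.3-fold above Unc5b knock-down cells (4.25 ± 0.34) and differed from empty vector cells by -0.00 ± 0.34. The Unc5b knock-down level rests on about 19 and 9 reads. The antisense gene Gm10558 shares 124 exon bases with Map2 (0.754%) and had the same low group, at 38 and 55 in Ntn1 knock-down cells, 6 and 0 in Unc5b knock-down cells and 49 and 59 in empty vector cells. Since the strand setting of the counting is not given, reads of the shared bases cannot be told apart.

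Mapt (ENSMUSG00000018411, chr11:104231390-104332090, plus strand, 7531 exon bases) encodes tau, the axonal relative of MAP2. It was low throughout, at 43 and 37 in Ntn1 knock-down cells, 34 and 56 in Unc5b knock-down cells and 45 and 39 in empty vector cells. All 3 groups overlapped, and the log2 differences were between -0.12 and 0.06, each ± 0.34. Mapt therefore did not have the low level in Unc5b knock-down cells that Map2 had, as far as about 30 to 40 reads per group can show. Map4, the family member of non-neuronal cells, was at 6879 and 6672 in Ntn1 knock-down cells, 5467 and 5823 in Unc5b knock-down cells and 5856 and 4036 in empty vector cells. Per kilobase of exon, Map2 held 6.88% and 9.41% of the sum of Map2, Mapt and Map4 in Ntn1 knock-down cells, 0.677% and 0.325% in Unc5b knock-down cells and 7.25% and 15.9% in empty vector cells.

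**Figure D1:**
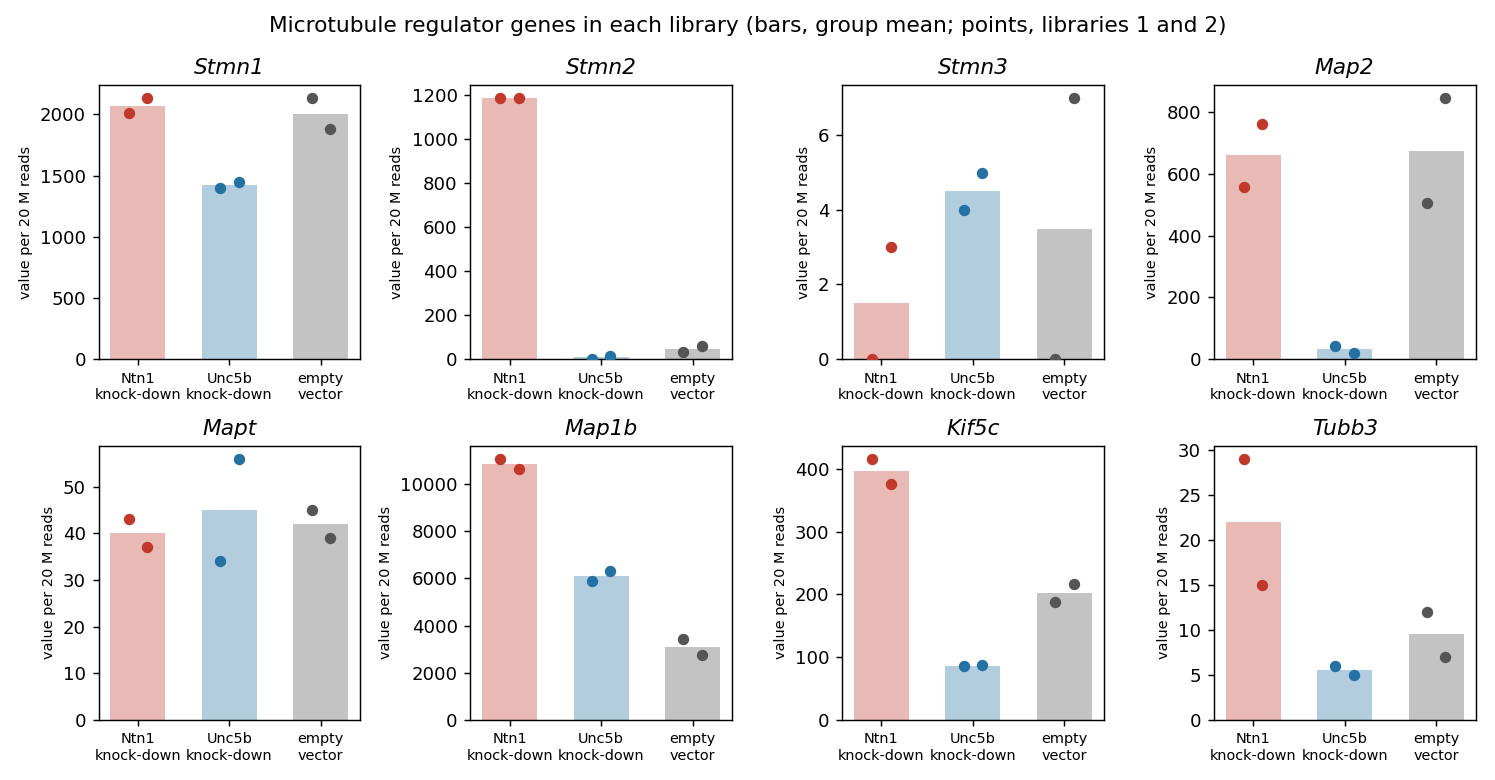
Scaled value of each of the 8 genes (y axes start at 0) in Ntn1 knock-down cells, Unc5b knock-down cells and empty vector cells; bars are group means and points are the 2 libraries. Stmn2 stands high in Ntn1 knock-down cells at 1184 and 1186, Map2 low in Unc5b knock-down cells at 41 and 21, and Stmn3 stays at 7 or below.

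Map1b was the only member higher than in empty vector cells in both knock-downs. Map1b (ENSMUSG00000052727, chr13:99421446-99516540, minus strand, 15846 exon bases) encodes a large microtubule-associated protein of growing axons, made as a precursor that is cut into heavy and light chains. It was at 11078 and 10647 in Ntn1 knock-down cells, 5897 and 6293 in Unc5b knock-down cells and 3437 and 2737 in empty vector cells. The groups did not overlap, and Unc5b knock-down cells lay between the other two. The level was 3.52-fold that of empty vector cells in Ntn1 knock-down cells (log2 difference 1.82 ± 0.13) and 1.97-fold in Unc5b knock-down cells (0.99 ± 0.13). Between the knock-downs it was 1.78-fold higher in Ntn1 knock-down cells (0.83 ± 0.13). With at least 1197 reads in every library, Map1b is the member with the least counting error.

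Its share of the MAP1 family differed as well. Per kilobase, Map1b held 81.2% and 81.7% of the summed level of Map1a, Map1b and Map1s in Ntn1 knock-down cells, 70.0% and 72.3% in Unc5b knock-down cells and 51.2% and 49.1% in empty vector cells. Map1s, the widely expressed relative, was at 1279 and 1186 in Ntn1 knock-down cells, 1263 and 1197 in Unc5b knock-down cells and 1612 and 1408 in empty vector cells. Map1a, the MAP1 of mature neurons, did not exceed 57 in any library.

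Kif5c differed in opposite directions. Kif5c (ENSMUSG00000026764, chr2:49619298-49774778, plus strand, 7142 exon bases) encodes a kinesin-1 heavy chain enriched in neurons. It was at 416 and 376 in Ntn1 knock-down cells, 85 and 88 in Unc5b knock-down cells and 187 and 217 in empty vector cells. No group overlapped another. Ntn1 knock-down cells were 1.96-fold above empty vector cells (log2 difference 0.96 ± 0.20), and Unc5b knock-down cells 2.34-fold below them (-1.17 ± 0.20). Ntn1 knock-down cells were 4.58-fold above Unc5b knock-down cells (2.13 ± 0.20).

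Kif5c was a small part of the kinesin-1 heavy chains. Its share per kilobase was 3.58% in both Ntn1 knock-down libraries, 1.22% and 1.11% in Unc5b knock-down cells and 2.84% and 3.26% in empty vector cells. Kif5b, the heavy chain that most cells use, was at 12490 and 11308 in Ntn1 knock-down cells, 7675 and 8744 in Unc5b knock-down cells and 7136 and 7182 in empty vector cells. Kif5b was thus also higher in Ntn1 knock-down cells than in empty vector cells (log2 difference 0.73 ± 0.11), and the shares of Kif5c in these groups lie closer together than its levels. Kif5a, the neuronal heavy chain, was at 14 or below throughout.

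Tubb3 (ENSMUSG00000062380, chr8:123411424-123422015, plus strand, 1868 exon bases) encodes beta-III tubulin, widely used as a neuron marker. It was barely detected, at 29 and 15 in Ntn1 knock-down cells, 6 and 5 in Unc5b knock-down cells and 12 and 7 in empty vector cells. The Ntn1 knock-down libraries were the highest and those of Unc5b knock-down cells the lowest, with no overlap, but these levels are 12 and 5, 3 and 2, and 6 and 3 reads. Its share of the summed level of 8 beta tubulins per kilobase was at most 0.105%, whereas Tubb5, the main beta tubulin of dividing cells, made up 61.5% of it on average in Ntn1 knock-down cells, 63.4% in Unc5b knock-down cells and 70.5% in empty vector cells.

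**Figure D2:**
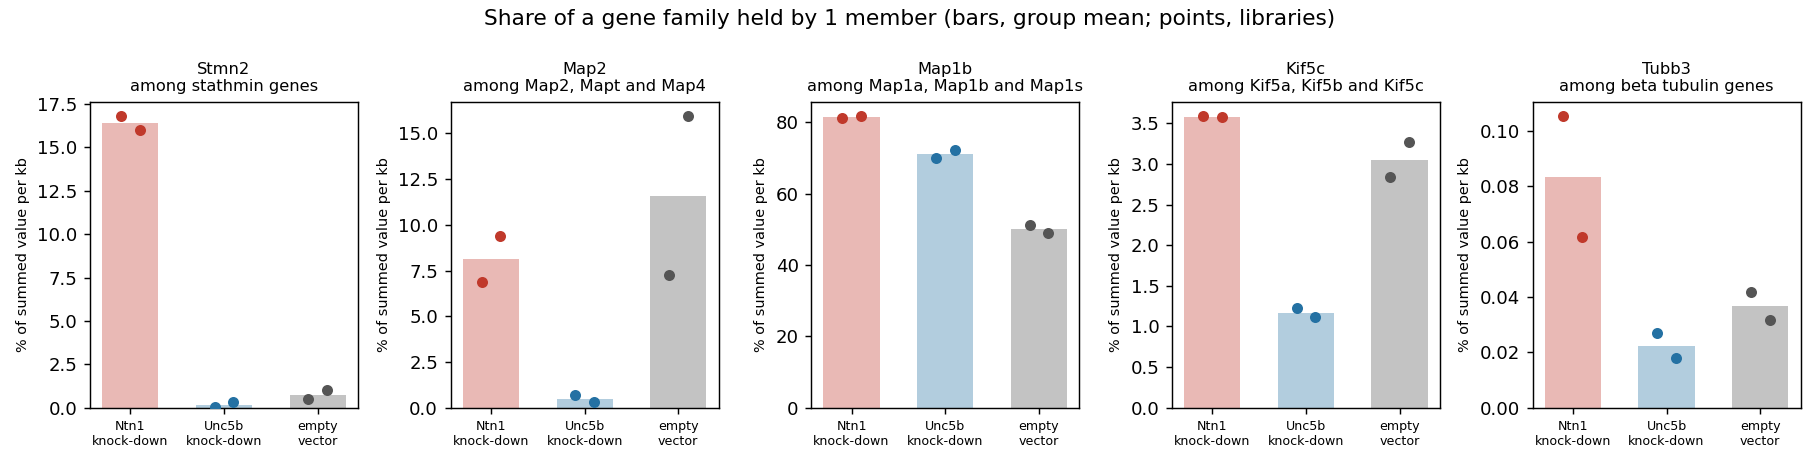
Share of Stmn2, Map2, Map1b, Kif5c and Tubb3, each in the summed level of its gene family (percent, y axes start at 0), by group. Levels are per kilobase of merged exons, bars are group means and points are libraries. Map1b holds 81.2% and 81.7% of the MAP1 sum in Ntn1 knock-down cells, against 51.2% and 49.1% in empty vector cells, and Stmn2 holds 16.8% and 16.0% of the stathmin sum in Ntn1 knock-down cells, against 0.496% and 1.02% in empty vector cells.

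Compared per kilobase, the order of the members differed between groups below the top pair. Stmn1 was first in every group, at 1078 per kilobase in Ntn1 knock-down cells, 740 in Unc5b knock-down cells and 1044 in empty vector cells, and Map1b was second, at 686, 385 and 195. In Ntn1 knock-down cells Stmn2 came next at 212, then Kif5c at 55.4, Map2 at 40.1, Tubb3 at 11.8, Mapt at 5.31 and Stmn3 at 1.32. No neighbours in that order overlapped, but Tubb3, Mapt and Stmn3 rest there on only 17, 30 and 1 reads in the group. In Unc5b knock-down cells Kif5c followed at 12.1, then Mapt at 5.98, Stmn3 at 3.96, Tubb3 at 2.94, Map2 at 1.88 and Stmn2 at 1.43. Only Map2 and Stmn2, the last pair, overlapped there, but from Mapt downwards each level rests on at most 40 reads in the group. With the empty vector Map2 came after Map1b at 41.1, then Kif5c at 28.3, Stmn2 at 7.85, Mapt at 5.58, Tubb3 at 5.09 and Stmn3 at 3.08, and from Stmn2 downwards each gene overlapped its neighbour.

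**Figure D3:**
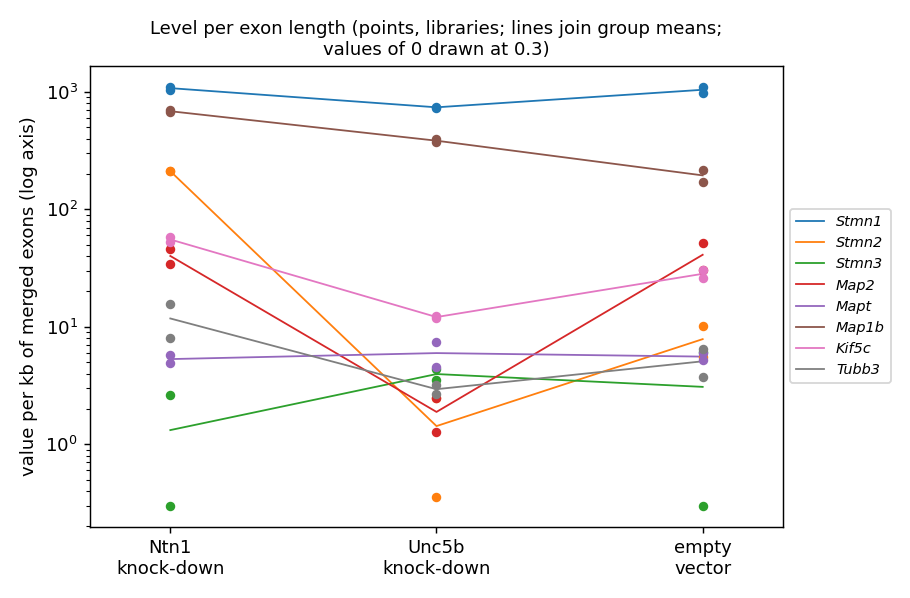
Level per kilobase of merged exons (log axis) of the 8 genes in the 3 groups; points are libraries, lines join the group means, and values of 0 are drawn at 0.3. Stmn1 and Map1b stay at the top, while Stmn2 is at 212 in Ntn1 knock-down cells and last at 1.43 in Unc5b knock-down cells.

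A linear model over all 15330 genes with a mean of at least 20, fitted with limma, gave the share of genes called at an adjusted p under 0.05, and 6 of the 8 members reached that mean. Most of the mean of Stmn2 came from Ntn1 knock-down cells, at 1185, against 44.0 in empty vector cells and 8.0 in Unc5b knock-down cells. In Ntn1 knock-down cells against empty vector cells 3 members were called, all higher (Stmn2, Map1b and Kif5c), where 15.1% of all genes were called, 8.04% higher and 7.06% lower. In Unc5b knock-down cells against empty vector cells 5 were called, Map1b higher and Map2, Kif5c, Stmn2 and Stmn1 lower, where 12.0% of all genes were called, 5.90% higher and 6.07% lower. In Ntn1 against Unc5b knock-down cells 5 were called, all but Mapt and all higher, where 7.10% of all genes were called, 4.15% higher and 2.95% lower. The members had been picked on these comparisons, so their counts are not evidence of anything beyond their own values. The median log2 difference of the 6 was 0.50, -0.83 and 1.48 in these comparisons, beside -0.02, 0.04 and -0.05 over all genes. The comparisons with empty vector cells share their control libraries, and all 3 comparisons share libraries in pairs.

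Several of these calls were lost when 1 library was left out. Such a loss need not come from the values of that library, since the fit then also has fewer degrees of freedom. Without an Ntn1 knock-down library, the log2 differences of Stmn1 and Stmn2 in Unc5b knock-down cells against empty vector cells stayed at -0.49 and -2.03. The same limit holds for the losses given below. Kif5c in Ntn1 knock-down cells against empty vector cells was not called without either Ntn1 knock-down library, which leaves 2 members. In Unc5b knock-down cells against empty vector cells the count was 3 without either Ntn1 knock-down library or without Unc5b knock-down library 1, and 4 without any 1 of the other libraries, through Stmn1 and Stmn2. Between the knock-downs it was 2 without library 1 and 3 without library 2 of Ntn1 knock-down cells, and 3 without library 1 and 4 without library 2 of Unc5b knock-down cells.

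**Figure D4:**
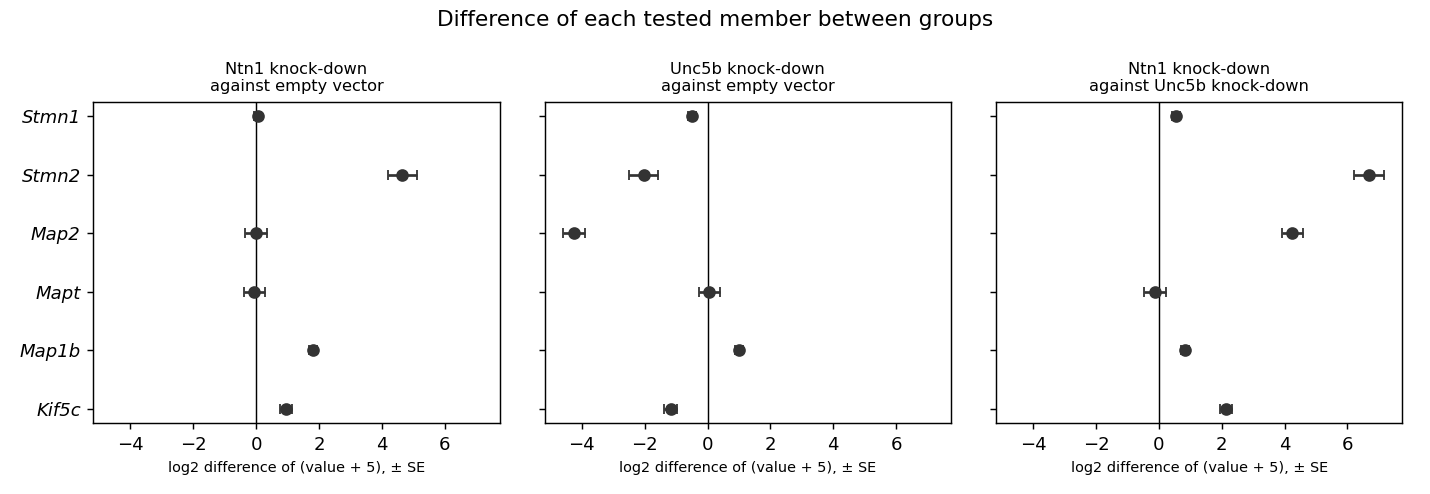
Log2 difference of value + 5 for the 6 members with a mean of at least 20 in each comparison, with SE bars from the model over all genes; 0 is the vertical line. Stmn2 is at 4.65 in Ntn1 knock-down cells against empty vector cells and Map2 at -4.25 in Unc5b knock-down cells against empty vector cells, while Mapt lies near 0 in each panel.

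To set the members in context, 6 lists of other microtubule genes were read from the same model. The lists too were chosen with earlier results of these data known. Their shares called are therefore a description, also where they exceed the share of all genes. Of 150 genes listed, 147 were in the table and 116 were tested. In Ntn1 knock-down cells against empty vector cells 16 rose and 8 fell (20.7%, against 15.1% of all genes), with a median log2 difference of 0.14. In Unc5b knock-down cells against empty vector cells 7 rose and 10 fell (14.7%, against 12.0%), with a median of 0.02. In Ntn1 against Unc5b knock-down cells 10 were higher and 2 lower (10.3%, against 7.10%), with a median of 0.09. The first count, 24 in all, was 5 when library 1 and 10 when library 2 of Ntn1 knock-down cells was left out. The second, 17 in all, was 10 without Unc5b knock-down library 2 and 30 without empty vector library 1. The third, 12 in all, was 1 without either Ntn1 knock-down library, 4 and 6 without Unc5b knock-down library 1 and 2, and 25 without either empty vector library.

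Of 14 tested tubulin genes, 3 rose in Ntn1 knock-down cells against empty vector cells and 11 did not pass the test. Tuba8, an alpha tubulin with a narrow tissue range, was at 326 and 312 in Ntn1 knock-down cells, against 26 and 39 in empty vector cells, which is 9.82-fold (adjusted p = 0.000256). Tuba8 also rose in Unc5b knock-down cells, to 212 and 208 (6.46-fold, adjusted p = 0.000653), where it was the 1 tubulin called. The closely related Tubb2a and Tubb2b were the other two called in Ntn1 knock-down cells and the 2 tubulins called, as higher, in Ntn1 against Unc5b knock-down cells. Tubb2b was at 2073 and 1688 in Ntn1 knock-down cells, 639 and 1049 in Unc5b knock-down cells and 723 and 540 in empty vector cells (adjusted p = 0.00446 against empty vector cells and 0.0266 between the knock-downs). Tubb2a, at 1393 and 1165 in Ntn1 knock-down cells and 425 and 616 in Unc5b knock-down cells, had an adjusted p of 0.0112 between them. Reads of these near-identical paralogs may have been split or lost in counting, so their values are uncertain, and Tuba8 shares exon bases with Gm15856. Without Ntn1 knock-down library 1 the adjusted p of Tubb2b was 0.0717 against empty vector cells, and between the knock-downs leaving out either Ntn1 knock-down library or Unc5b knock-down library 1 took it to at most 0.25 and that of Tubb2a to at most 0.166.

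Among 28 tested genes for other microtubule-associated proteins, 4 rose and 2 fell in Ntn1 knock-down cells against empty vector cells. Dclk1 and Dclk2, which encode doublecortin-like kinases that bind microtubules, fell. Dclk1 was at 870 and 917 in Ntn1 knock-down cells, against 2319 and 1973 in empty vector cells (log2 difference -1.26 ± 0.17, adjusted p = 0.0027). In Unc5b knock-down cells Dclk1 was at 346 and 475. Dclk2 was at 43 and 28 in Ntn1 knock-down cells, against 161 and 199 in empty vector cells (adjusted p = 0.00635), and at 19 and 39 in Unc5b knock-down cells (adjusted p = 0.00456). Clip2, which encodes a plus-end binding protein, rose to 2304 and 2196 in Ntn1 knock-down cells and 2278 and 2402 in Unc5b knock-down cells, against 1248 and 937 in empty vector cells (adjusted p = 0.00297 and 0.003). Camsap2, which encodes a minus-end binding protein, rose 1.75-fold in Ntn1 knock-down cells (adjusted p = 0.00301). Each of these 4 calls in Ntn1 knock-down cells was lost without 1 of its libraries, at adjusted p = 0.0514 for Dclk1, 0.0572 for Clip2 and 0.0618 for Camsap2 without library 1 and 0.0726 for Dclk2 without library 2.

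Of that list 1 gene rose and 5 fell in Unc5b knock-down cells against empty vector cells. Mtus1, which encodes a microtubule-associated tumour suppressor, was at 4 and 2 in Unc5b knock-down cells, against 31 and 46 in empty vector cells (adjusted p = 0.00659). It was at 83 and 55 in Ntn1 knock-down cells, above Unc5b knock-down cells with an adjusted p of 0.00391. Most of the mean of Mtus1, 36.8 over the 6 libraries, came from Ntn1 knock-down cells. The filter on low values thus favoured the difference between the knock-downs, and that call supports nothing. Both Unc5b knock-down values of Mtus1 lie below 3 reads. Between the knock-downs 5 genes of the list were higher in Ntn1 knock-down cells, with Map9, a protein of spindles and cilia, at 145 and 138 in Ntn1 knock-down cells, against 60 and 46 in Unc5b knock-down cells (adjusted p = 0.0172). Without 1 Ntn1 knock-down library the adjusted p between the knock-downs was at most 0.079 for Mtus1 and 0.176 for Map9, and without Unc5b knock-down library 1 or 2 that of Map9 was 0.056 or 0.107.

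Of 22 tested genes for transport kinesins, light chains and adaptors, 5 rose and 1 fell in Ntn1 knock-down cells, and 2 rose and 1 fell in Unc5b knock-down cells, both against empty vector cells. Kif21b, which encodes a plus-end directed kinesin of neurons and immune cells, was at 644 and 801 in Ntn1 knock-down cells and 620 and 384 in Unc5b knock-down cells, against 236 and 229 in empty vector cells (adjusted p = 0.0034 and 0.0237). Mapk8ip1, which encodes the adaptor JIP1 that links kinesin-1 to cargo and to JNK, fell to 131 and 162 in Ntn1 knock-down cells and 133 and 104 in Unc5b knock-down cells, against 326 and 517 in empty vector cells (adjusted p = 0.00895 and 0.00503). Kif17, a kinesin of dendrites and cilia, was called in Ntn1 knock-down cells at an adjusted p of 0.0491, and the kinesin light chain Klc2 in Unc5b knock-down cells at 0.0468. Between the knock-downs Kif5b was the 1 gene called (adjusted p = 0.0267). Exons of Mapk8ip1, Kif17 and Klc2 overlap those of other genes. Leaving out 1 library ended all of these calls but that of Mapk8ip1 in Unc5b knock-down cells, with adjusted p-values of at most 0.0588 for Kif21b, 0.0986 for Mapk8ip1 and 0.302 for Kif17 in Ntn1 knock-down cells, 0.113 for Kif21b and 0.233 for Klc2 in Unc5b knock-down cells, and 0.278 for Kif5b. For Kif21b in Ntn1 knock-down cells this was library 2 of that group, for Mapk8ip1 either of its libraries and for Kif17 any of the 6. For calls in Unc5b knock-down cells it was either Ntn1 knock-down library, Unc5b knock-down library 1 or empty vector library 2 for Kif21b, and any but empty vector library 1 for Klc2, and for Kif5b it was any knock-down library.

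Among 12 tested genes for severing and depolymerising proteins, 2 rose and 2 fell in Ntn1 knock-down cells and 2 fell in Unc5b knock-down cells, against empty vector cells. Kif2a, which encodes a depolymerising kinesin, was at 3296 and 2975 in Ntn1 knock-down cells, 1586 and 1566 in Unc5b knock-down cells and 2240 and 2108 in empty vector cells. It was called in all 3 comparisons, higher in Ntn1 knock-down cells (adjusted p = 0.0169) and lower in Unc5b knock-down cells (adjusted p = 0.0333), with an adjusted p of 0.00272 between them, as the 1 gene of the list called there. Katnal1 (adjusted p = 0.0376) rose and Kif18a (adjusted p = 0.0162) fell in Ntn1 knock-down cells. Exons of Kif2a, Katnal1 and Kif18a overlap those of other genes. Without single libraries the adjusted p was at most 0.193 and 0.151 for Kif2a against empty vector cells and 0.0822 between the knock-downs, 0.225 for Katnal1 and 0.162 for Kif18a. Either Ntn1 knock-down library was enough to end these calls, as was either Unc5b knock-down library or empty vector library 1 for Katnal1 and for Kif2a in Unc5b knock-down cells.

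Of 17 tested tubulin-modifying enzymes, 2 rose in Ntn1 knock-down cells and 1 in Unc5b knock-down cells, against empty vector cells. Hdac6, which encodes a tubulin deacetylase, was at 1588 and 1685 in Ntn1 knock-down cells and 1528 and 1575 in Unc5b knock-down cells, against 994 and 981 in empty vector cells (adjusted p = 0.00477 and 0.0094). Ttll7, which encodes a polyglutamylase, rose to 2273 and 2012 in Ntn1 knock-down cells, against 1071 and 1267 in empty vector cells (adjusted p = 0.00434), and was higher there than the 1421 and 1311 of Unc5b knock-down cells (adjusted p = 0.028). Without single libraries these adjusted p-values reached at most 0.0841 and 0.0681 for Hdac6 and 0.0793 and 0.278 for Ttll7. The calls of Hdac6 needed both Ntn1 knock-down libraries, or in Unc5b knock-down cells its library 2, and that of Ttll7 against empty vector cells needed Ntn1 knock-down library 1. Between the knock-downs the call of Ttll7 was lost when any knock-down library was left out.

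Of 23 tested kinases and phosphatase subunits that act on tau, MAP or stathmin proteins, 3 fell in Ntn1 knock-down cells, and 2 rose and 2 fell in Unc5b knock-down cells, against empty vector cells. Ppp2r2c, which encodes a brain-enriched regulatory subunit of phosphatase 2A, was at 38 and 18 in Ntn1 knock-down cells, 566 and 324 in Unc5b knock-down cells and 1435 and 1457 in empty vector cells. It was 51.6-fold lower in Ntn1 knock-down cells than in empty vector cells (log2 difference -5.53 ± 0.34, adjusted p = 0.000125), 3.25-fold lower in Unc5b knock-down cells (adjusted p = 0.0138) and 15.9-fold lower in Ntn1 than in Unc5b knock-down cells (adjusted p = 0.00124). Mark1, which encodes a kinase of MAP2, tau and MAP4, fell to 38 and 46 in Ntn1 knock-down cells and 49 and 19 in Unc5b knock-down cells, against 254 and 190 in empty vector cells (adjusted p = 0.00769 and 0.00488). Mark3 (adjusted p = 0.028) and Sik1 (adjusted p = 0.0434) rose in Unc5b knock-down cells, and Sik1 was lower in Ntn1 than in Unc5b knock-down cells (adjusted p = 0.0367). Without single libraries the adjusted p reached 0.107 for Ppp2r2c in Unc5b knock-down cells, 0.0822 for Mark1 in Ntn1 knock-down cells, 0.178 for Mark3, and 0.16 and 0.33 for Sik1. The library was Unc5b knock-down library 2 for Ppp2r2c and either Ntn1 knock-down library for Mark1. For Mark3 it was either Ntn1 knock-down library, Unc5b knock-down library 2 or empty vector library 2. For Sik1 it was any knock-down library, and in Unc5b knock-down cells also empty vector library 2.

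**Figure D5:**
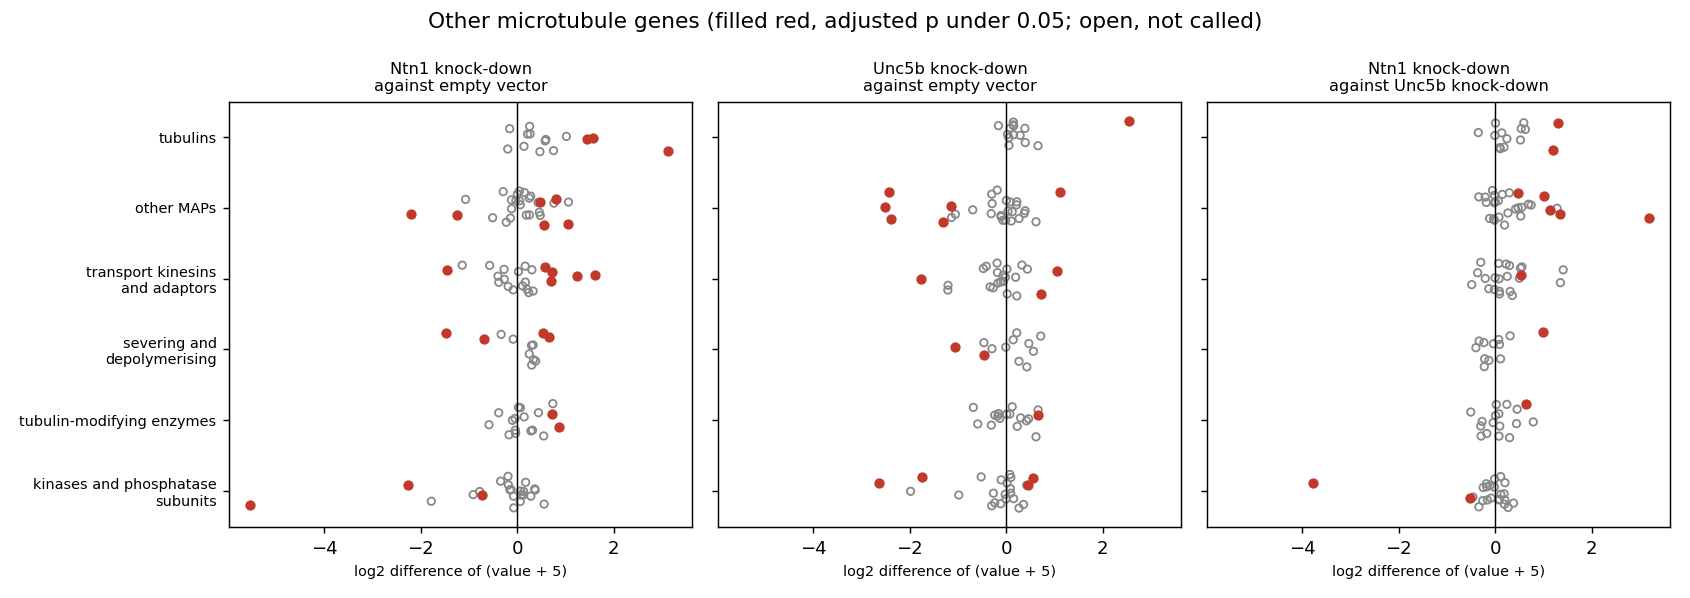
Log2 difference of value + 5 for the 116 tested genes of the 6 other microtubule lists, 1 row per list and 1 panel per comparison; filled red points have an adjusted p under 0.05 and open points do not. The filled point farthest left is Ppp2r2c in Ntn1 knock-down cells against empty vector cells, at -5.53, and the farthest right in that panel is Tuba8 at 3.13.

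Most markers of neurons were low or at 0. Of 24 neuron markers, 8 passed the filter on low values, and Rbfox3, Gap43 and Gad1 were listed at 0 in all 6 libraries. The summed level of the list was 2671 and 2775 in Ntn1 knock-down cells, 1477 in both Unc5b knock-down libraries and 2082 and 2673 in empty vector cells. The adhesion molecule gene Ncam1 made up most of the sum in empty vector cells but not in the knock-downs. Ncam1 was at 1253 and 1333 in Ntn1 knock-down cells, 432 and 364 in Unc5b knock-down cells and 1470 and 1889 in empty vector cells, and it fell in Unc5b knock-down cells (log2 difference -2.06 ± 0.16, adjusted p = 0.000404). Against the empty vector 4 of the 8 rose in Ntn1 knock-down cells and 1 rose and 1 fell in Unc5b knock-down cells, and 4 were higher in Ntn1 than in Unc5b knock-down cells. The neurofilament genes Nefm and Nefl were at 181 and 122 and at 133 and 86 in Ntn1 knock-down cells, at 2 or below in Unc5b knock-down cells and at 0 in both empty vector libraries. Nefm, Nefl and Uchl1, which encodes a neuronal ubiquitin hydrolase and was at 107 and 131 in Ntn1 knock-down cells, 9 and 7 in Unc5b knock-down cells and 4 and 9 in empty vector cells, passed the filter only through Ntn1 knock-down cells and so had to differ, and the counts of 4 support nothing. Nefm and Nefl share annotated exon bases, so their reads are not fully separate. Celf4, which encodes an RNA-binding protein, rose in Unc5b knock-down cells to 515 and 665, against 167 and 240 in empty vector cells (adjusted p = 0.00391), and was at 542 and 621 in Ntn1 knock-down cells. The part of these markers in the members' differences was not tested.

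Other cell types were read from their own lists. Of 14 neuroendocrine and Merkel cell markers 2 were tested, Scg2, Scg3, Atoh1, Sox2, Krt20 and Vip were listed at 0 in all libraries, and the sums were 2347 and 2800 in Ntn1 knock-down cells, 2362 and 2274 in Unc5b knock-down cells and 1162 and 1541 in empty vector cells. The largest part in each library was Piezo2, which encodes a mechanosensitive channel and was at 2190 and 2657 in Ntn1 knock-down cells, 2204 and 2126 in Unc5b knock-down cells and 763 and 963 in empty vector cells (adjusted p = 0.000727 and 0.00144). The other tested gene, Isl1, which encodes a transcription factor of neurons and endocrine cells, fell to 124 and 116 in Ntn1 knock-down cells and 130 and 111 in Unc5b knock-down cells, against 377 and 544 in empty vector cells (adjusted p = 0.00162 and 0.00214). Of 10 Schwann cell markers 5 were tested, Mag and Pmp2 were at 0, and the sums were 6205 and 6048 in Ntn1 knock-down cells, 10787 and 8448 in Unc5b knock-down cells and 7518 and 7160 in empty vector cells, led by the neurotrophin receptor gene Ngfr. The myelin gene Mbp fell in Ntn1 knock-down cells (adjusted p = 0.00538), Ngfr rose in Unc5b knock-down cells (adjusted p = 0.0424), both against empty vector cells, and both were lower in Ntn1 than in Unc5b knock-down cells (adjusted p = 0.00697 and 0.0222). Each of these calls needed both Ntn1 knock-down libraries, and those of Ngfr and of Mbp between the knock-downs Unc5b knock-down library 1 too, with adjusted p-values otherwise of at most 0.121 for Mbp and 0.215 for Ngfr, and the call of Ngfr in Unc5b knock-down cells needed empty vector library 2 as well.

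Melanocyte markers, 2 of 6 tested, summed to 359 and 345 in Ntn1 knock-down cells, 325 and 313 in Unc5b knock-down cells and 1537 and 1130 in empty vector cells, while Tyrp1 and Dct were at 0. Mitf, which encodes a transcription factor of melanocytes, made up most of that and fell to 311 and 284 in Ntn1 knock-down cells and 299 and 257 in Unc5b knock-down cells, against 1513 and 1100 in empty vector cells (adjusted p = 0.000431 and 0.000466). Immune cell markers, 2 of 8 tested, summed to 454 and 568 in Ntn1 knock-down cells, 1660 and 1098 in Unc5b knock-down cells and 1300 and 1542 in empty vector cells, while Adgre1 and Lyz2 were at 0. The largest part in each library was Csf1r, which encodes a receptor of macrophages and was at 347 and 443 in Ntn1 knock-down cells, 1569 and 1003 in Unc5b knock-down cells and 1213 and 1511 in empty vector cells. Csf1r shares annotated exon bases with Hmgxb3. It was lower in Ntn1 knock-down cells than in empty vector cells (adjusted p = 0.00193) and than in Unc5b knock-down cells (adjusted p = 0.00608, but at most 0.106 without either Ntn1 knock-down library). Fibroblast markers, 2 of 9 tested, did not exceed a sum of 311 in any library, and limma called 0 of them in each comparison, with 1 at an unadjusted p under 0.05 in Ntn1 knock-down cells against empty vector cells and 0 in the others, and 0 called by limma-voom. Of the 10 epithelial and keratinocyte markers, 2 rose and 2 fell in Ntn1 knock-down cells and 1 rose in Unc5b knock-down cells, against empty vector cells. The basal keratin gene Krt5 rose in both, to 1034 and 1027 in Ntn1 knock-down cells and 697 and 776 in Unc5b knock-down cells, against 287 and 320 in empty vector cells (adjusted p = 0.000327 and 0.00136). The other that rose in Ntn1 knock-down cells was Krt18, a keratin of simple epithelia, at 14678 and 14442, against 9797 and 11337 in empty vector cells (adjusted p = 0.0234). Trp63, which encodes a transcription factor of basal keratinocytes, was lower in Ntn1 knock-down cells, at 33 and 31, than in Unc5b knock-down cells, at 152 and 88, and in empty vector cells, at 94 and 96 (adjusted p = 0.0172 and 0.0178). Cldn4, which encodes a tight junction claudin, was at 5176 and 4850 in Ntn1 knock-down cells, 8192 and 7658 in Unc5b knock-down cells and 7837 and 8145 in empty vector cells, lower in Ntn1 knock-down cells than in each of the others (adjusted p = 0.0094 and 0.00392). The E-cadherin gene Cdh1 was higher in Ntn1 knock-down cells, at 9380 and 8767, than in Unc5b knock-down cells, at 6446 and 5719 (adjusted p = 0.0228). Each of these calls of Krt18, Trp63, Cldn4 and Cdh1 needed both Ntn1 knock-down libraries. Those between the knock-downs also needed Unc5b knock-down library 1, that of Cdh1 also library 2, and that of Krt18 needed empty vector library 1, with adjusted p-values without one of them of at most 0.186 for Krt18, 0.153 for Trp63, 0.156 for Cldn4 and 0.249 for Cdh1. The part of these cell types in the members' differences was not tested.

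Regulators that hold neuronal genes silent elsewhere were also read. Rest, which encodes the repressor of neuronal genes in non-neuronal cells, was at 4206 and 3532 in Ntn1 knock-down cells, 4576 and 4341 in Unc5b knock-down cells and 3512 and 3722 in empty vector cells, and it was not called in any comparison. Of the 15 genes of that list, all tested, 3 rose and 4 fell in Ntn1 knock-down cells and 1 rose and 1 fell in Unc5b knock-down cells, against empty vector cells. Rcor1, which encodes a corepressor that REST recruits, rose to 2687 and 2715 in Ntn1 knock-down cells and 2608 and 2386 in Unc5b knock-down cells, against 1496 and 1690 in empty vector cells (adjusted p = 0.00419 and 0.0104). The call of Rcor1 in Ntn1 knock-down cells was lost without either library of that group (adjusted p of at most 0.0694), and that in Unc5b knock-down cells without library 1 of that group (0.0644). Between the knock-downs limma called 0 of the 15, with 3 at an unadjusted p under 0.05 and 0 called by limma-voom on the recovered reads. Of 22 mitotic genes, which share with Stmn1 a high level in dividing cells, Nusap1 and Bub1b fell in Ntn1 knock-down cells (adjusted p = 0.0106 and 0.0467), and Mki67 was higher in Ntn1 than in Unc5b knock-down cells (adjusted p = 0.0451). Exons of Nusap1 overlap those of Oip5. In Unc5b knock-down cells against empty vector cells limma called 0 of the 22, with 2 at an unadjusted p under 0.05 and 0 called by limma-voom. Without single libraries the adjusted p was at most 0.116 for Nusap1, 0.25 for Bub1b and 0.304 for Mki67. Either Ntn1 knock-down library ended each of these calls, either Unc5b knock-down library those of Bub1b and Mki67, and empty vector library 2 that of Bub1b.

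The genes whose pattern was most like a member were found from the root mean square difference of centred log2 levels over the 6 libraries, for the 4 members whose group means spanned at least 1 on the log2 scale. For Stmn2 the nearest was Cdh2, which encodes N-cadherin, at 811 and 709 in Ntn1 knock-down cells, 9 and 7 in Unc5b knock-down cells and 43 and 98 in empty vector cells, with a difference of 0.705. Gfra2 and Cyfip2 followed at 0.967 and 1.01. For Map2 they were Lrch2 (0.405), Dpysl3 (0.419) and Grb14 (0.44), and Dpysl3, which encodes a collapsin response mediator protein that binds tubulin, was at 155 and 122 in Ntn1 knock-down cells, 4 and 0 in Unc5b knock-down cells and 49 and 149 in empty vector cells. For Map1b the likeness was closest, with Mgat5 at 0.0952, Nmnat2 at 0.0961 and Mast4 at 0.121. Nmnat2, which encodes an axon survival enzyme, was at 975 and 914 in Ntn1 knock-down cells, 479 and 572 in Unc5b knock-down cells and 334 and 217 in empty vector cells. For Kif5c the nearest were Pcdh18 (0.166) and Pmepa1 (0.181), and Pmepa1, a target of TGF-beta signalling, was at 4344 and 4235 in Ntn1 knock-down cells, 1274 and 1290 in Unc5b knock-down cells and 2113 and 2405 in empty vector cells. These genes were picked for their likeness from all genes tested, so it is a description.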

How the data were processed

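Bulk RNA-seq of 6 libraries in 3 groups of 2 was used, with libraries made by the Ovation Solo system from RNA of sorted cells, per the labels' protocols. STAR, Picard and HTSeq and the GRCm38 (mm10) build are named in the submitters' processing notes, with no versions, and no source used here gives the annotation, counting settings or strand setting. Exons of several genes named from the lists overlap those of other annotated genes, also where this is not stated, so their reads may not be separate. The deposited table holds a score: whole numbers that the authors scaled to about 20 M per library and rounded. Low values were whole multiples of a step, within 0.5, for 100% of distinct values up to 8000, and the step (1.97 to 3.06) gave depth and reads per gene. Of 49671 gene identifiers, 49326 were found in GENCODE M21 (GRCm38), used for positions and merged exon lengths, and promoter windows came from RefSeq.

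A linear model with 3 groups was fitted with limma 3.58.1 in R 4.3.3 to log2(value + 5) of 15330 genes with a mean of at least 20, with a variance trend, 3 residual and 5.33 prior degrees of freedom. Tests were 2-sided, with Benjamini-Hochberg adjustment over all genes within each comparison and a threshold of 0.05. Log2 differences on this scale understate the change of low genes, and folds are ratios of group means as deposited. With 2 libraries a group, 0.333 is the smallest p of an exact permutation test, which was therefore not used. The scripts were tested on simulated data.

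The members and lists were chosen with earlier results of these data known. All members were named, and some items are not reported here. From each list and comparison up to 2 genes called higher and 2 called lower were named, those with the largest differences among genes whose libraries did not overlap. Alternatives were the pseudocount (1 or 20), the filter (none or a mean of 50), scaling, no variance trend, only the 2 groups compared, a replicate block, each library left out and, added after seeing the data, limma-voom on recovered reads and a crossed block.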

Additional observations from a re-analysis of the deposited data

How the results depend on the processing

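No called difference of a member or named gene changed sign under any alternative run. Leaving out 1 library gave 507 to 2769 genes called in Ntn1 knock-down cells against empty vector cells, 680 to 2428 in Unc5b knock-down cells and 34 to 1842 between the knock-downs. It gave 5 to 36, 10 to 30 and 1 to 25 microtubule genes outside the members, and 2 to 3, 3 to 4 and 2 to 5 members. A group left with 1 library is assumed to vary like the others. The genes called, 2314, 1835 and 1088 in these comparisons, were 1289, 791 and 302 with no filter, and 1462, 1115 and 454 with no variance trend. With only the groups compared the second was 950 and the third 1856. Microtubule genes, 24, 17 and 12, were 9 and 3 in the second and the third with no filter, 11 and 4 with no variance trend, and 25 in the third with only the groups compared. Members called, 5 in the second and the third, were 3 with no filter and with no variance trend, and 3 in the second with only the groups compared. These causes were not tested.

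Same-numbered libraries deviated together little or in opposite directions (r = 0.16, -0.45 and -0.169 for Ntn1 knock-down with empty vector, Unc5b knock-down with empty vector, and the knock-downs). The numbers were therefore not taken as pairs. Whether libraries share a batch in another order is not known from the sources used here. A replicate block gave 1465, 1102 and 459 genes called and 5 microtubule genes in the third comparison. Crossing the Unc5b knock-down numbers in the block gave 4151, 3585 and 2617 genes and 44, 33 and 30 microtubule genes. Of 75 calls of genes named from the lists, 24 held under every alternative. TMM and median-of-ratios scaling moved the median of all genes by less than 0.1. Depth limits Stmn3 and Tubb3 in every library, and Stmn2 and Map2 in Unc5b knock-down cells.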
